A study of Homo sapiens with 3 samples.

Results

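The genes described here are 3 NF-kB subunits (RELB, NFKB1 and NFKB2), 2 inhibitors of the pathway (NFKBIA and TNFAIP3) and 5 targets, the survival gene BIRC3, the adhesion gene ICAM1 and the chemokine genes CXCL1, CXCL8 and CCL20. They were chosen by symbol, with earlier results of these data known, and all 10 were found once among the 19912 features of the deposited count matrices. Single-cell RNA had been counted in the human colorectal carcinoma line HCT116, which carried an H2B-GFP label and had been cultured in an organ-on-chip, a microfluidic device with a top and a bottom channel. The study asked how peristaltic stretch bears on tumor cell invasion. The first group, not stretched top, was top-channel (non-invaded) cells of chips without peristalsis. The second, stretched top, was top-channel cells of chips exposed to peristaltic stretch for 6 days, and the third, stretched bottom, was invaded cells from the bottom channel under stretch. All cells carried H2B-GFP and were detached with trypsin and sorted by GFP. With 1 library a group, differences between groups have no replicate check and no test, and every interval covers counting error only. The effect of stretch or channel and that of the chip and library cannot be told apart.

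NF-kB is a family of transcription factors that sit in the cytoplasm bound to inhibitors of the IkB class until a signal through receptors of the TNF, interleukin-1 or Toll-like type activates the IkB kinases. In the canonical branch the kinase complex marks IkB-alpha (encoded by NFKBIA) for degradation and frees dimers that hold p50, made from NFKB1. In the non-canonical branch p100, made from NFKB2, is processed to p52, which pairs with RELB. The freed dimers switch on their own inhibitors, among them NFKBIA and TNFAIP3, as well as survival genes, adhesion molecules and the chemokines by which an inflamed intestinal epithelium calls in leukocytes.

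RefSeq promoter sequences (GRCh38.p14, 250 bases before to 50 after each start) were found for 9 of the 10 genes, all but RELB. The kB consensus of 10 bases, read on both strands, was present in 7 of them (NFKB1, NFKB2, NFKBIA, TNFAIP3, BIRC3, CXCL1 and CCL20), and in 5.91% of all 35116 promoters in the same table. The overlapping motif GGAATTTCC, on either strand, was in 5 (NFKB1, NFKBIA, ICAM1, CXCL1 and CXCL8) and in 0.461% of all promoters, so each of the 9 held at least 1 of the pair. TGACTCA, a binding motif of AP-1 factors, was in CXCL8 alone and in 4.95% of all promoters. A match describes letters and is no shown binding site. Stretches are printed for CXCL8, CXCL1, CCL20, NFKBIA, BIRC3 and NFKB1. None is printed for NFKB2, TNFAIP3 and ICAM1, where the chosen match lies in an exon. Capitals mark the kB or GGAATTTCC match on either strand and, in CXCL8, also TGACTCA, and no printed base lies in an exon of GENCODE release 29 (the CCL20 stretch lies in an intron of its gene model).
CXCL8, chr4:73740428-73740505, plus strand, 141 to 64 bases before the start: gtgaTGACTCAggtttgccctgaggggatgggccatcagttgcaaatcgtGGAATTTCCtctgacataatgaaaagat
CXCL1, chr4:73869264-73869353, plus strand, 129 to 40 bases before the start: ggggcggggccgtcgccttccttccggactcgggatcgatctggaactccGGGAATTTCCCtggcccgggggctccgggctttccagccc
CCL20, chr2:227813713-227813802, plus strand, 129 to 40 bases before the start: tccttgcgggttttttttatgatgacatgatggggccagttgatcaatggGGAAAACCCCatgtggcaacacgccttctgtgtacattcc
NFKBIA, chr14:35404791-35404880, minus strand, 131 to 42 bases before the start: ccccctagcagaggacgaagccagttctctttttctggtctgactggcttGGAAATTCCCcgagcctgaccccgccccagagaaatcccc
BIRC3, chr11:102317235-102317324, plus strand, 249 to 160 bases before the start: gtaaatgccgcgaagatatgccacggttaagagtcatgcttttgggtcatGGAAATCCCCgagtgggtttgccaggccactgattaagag
NFKB1, chr4:102501260-102501328, plus strand, 99 to 31 bases before the start: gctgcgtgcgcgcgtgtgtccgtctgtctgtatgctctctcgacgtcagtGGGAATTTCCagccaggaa

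RNA was counted in UMIs (unique molecular identifiers), each standing for 1 counted RNA molecule. Kept cells numbered 17206 in the library of the not stretched top channel (212503735 UMIs), 20121 in that of the stretched top (210814252 UMIs) and 1951 in that of the stretched bottom (76641034 UMIs). The bottom cells were deeper, with a median of 40387 UMIs against 10964 (not stretched) and 9384 (stretched) in top cells. The top libraries shared 88 cell barcodes, and the bottom library shared 6 with the not stretched top and 9 with the stretched top library. All 9 epithelial markers reached 10 CPM (a gene's UMIs times 1000000 over all UMIs of the library) in each library, whereas no fibroblast or leukocyte marker did. Of 11 endothelial markers only EGFL7 did (101 to 123 CPM). All 11 summed to 129 CPM (not stretched top), 105 CPM (stretched top) and 128 CPM (stretched bottom). The 10 without EGFL7 summed to 5.36, 4.24 and 10.7 CPM in that order. Single markers differed: CLDN5 had 1, 0 and 59 UMIs, while ESAM stood at 2.72, 1.99 and 2.11 CPM. Interferon-stimulated genes, 25 in a list, summed to 6062, 4382 and 530 CPM in the same order.

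The subunit genes were present in all 3 libraries, and RELB separated the channels most. Gene positions are those of GENCODE 29 (GRCh38), on the plus strand unless said. RELB (ENSG00000104856, chr19:45001430-45038198), the non-canonical partner subunit, stood at 22.1 CPM without stretch, 24.4 CPM in the stretched top and 13.3 CPM in the stretched bottom (4699, 5152 and 1020 UMIs). Its bottom level lay below both top levels and no intervals overlapped: it was 1.84-fold lower than in the stretched top (95% interval 1.72 to 1.97) and 1.66-fold lower than in the not stretched top (1.55 to 1.78). NFKB1 (ENSG00000109320, chr4:102501329-102617302), the p105 and p50 gene, stood at 30.7, 31.9 and 25.2 CPM in the same order (6518, 6718 and 1929 UMIs). The intervals of the tops overlapped (29.9 to 31.4 and 31.1 to 32.6 CPM), and the bottom library was 1.27-fold below the stretched top (upper bound 1.33). NFKB2 (ENSG00000077150, chr10:102394110-102402529), the p100 and p52 gene, was the exception in direction, with 20.6, 19.4 and 22.1 CPM (4387, 4085 and 1697 UMIs). Its bottom level was 1.14-fold above the stretched top (1.08 to 1.21), its interval (21.1 to 23.2 CPM) overlapped that of the not stretched top (upper bound 21.3 CPM), and NFKB2 was above 0 in the bottom against stretched top comparison under all 17 alternatives computed. NFKB2 and RELB, the partners of the non-canonical dimer, thus had opposite directions between the channels.

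The inhibitor genes, both of them feedback targets of the pathway, were lowest in the bottom library. NFKBIA (ENSG00000100906, chr14:35401511-35404749, minus strand), which encodes IkB-alpha, stood at 34.0 CPM without stretch, 39.9 CPM in the stretched top and 26.2 CPM in the stretched bottom (7233, 8410 and 2011 UMIs). With stretch it was 1.17-fold higher in the top channel (1.14 to 1.21), and in the bottom it was 1.52-fold lower than in the stretched top (1.45 to 1.60). On the log2 scale with 1 CPM added that last difference was -0.59, at the very edge of the 1.5-fold threshold, and it was short of it under TMM scaling (-0.55). TNFAIP3 (ENSG00000118503, chr6:137867188-137883312), which encodes the ubiquitin-editing enzyme A20, stood at 2.00, 2.47 and 1.41 CPM (424, 520 and 108 UMIs). The order was the same as for NFKBIA, with no overlap of intervals, and the bottom level was 1.75-fold below the stretched top (1.42 to 2.17). Without a small group of top cells described below, the intervals of the not stretched top and the bottom overlapped.

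**Figure D1:**
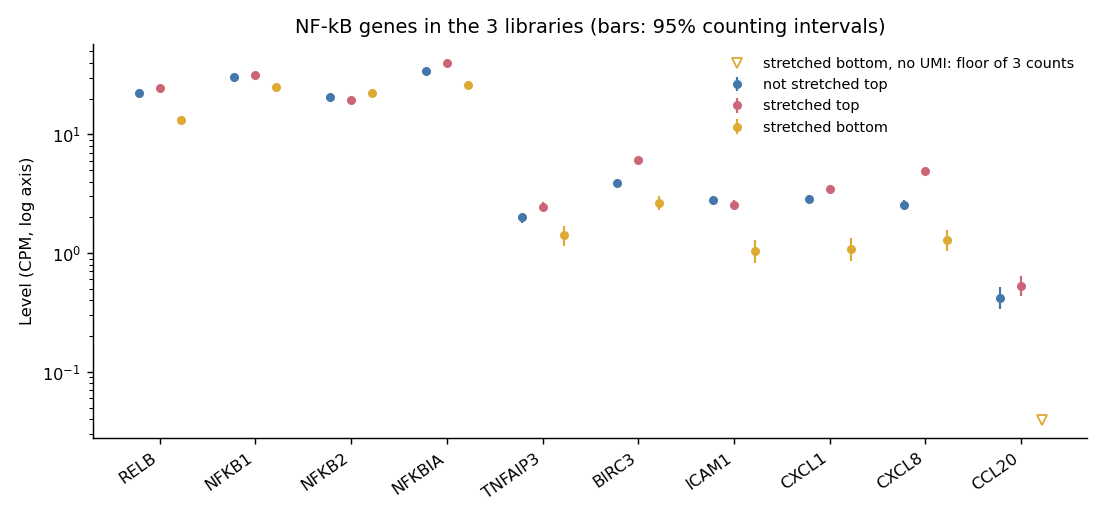
Level of each of the 10 genes (CPM, log axis) in the not stretched top, stretched top and stretched bottom library, with exact Poisson 95% intervals as bars and 1 library a group. The bottom library is lowest for every gene but NFKB2, and CCL20, with 0 UMIs there, is drawn at the floor of 3 counts, 0.0391 CPM.

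Of the survival and adhesion targets, BIRC3 differed with stretch and both differed between channels. BIRC3 (ENSG00000023445, chr11:102317450-102339403), which encodes the apoptosis inhibitor cIAP2, stood at 3.86 CPM without stretch, 6.05 CPM in the stretched top and 2.65 CPM in the stretched bottom (821, 1276 and 203 UMIs). It was 1.57-fold higher with stretch in the top channel (1.43 to 1.71), and 2.29-fold lower in the bottom than in the stretched top (1.97 to 2.66). With 1 CPM added the stretch difference was 0.54 on the log2 scale, short of 1.5-fold, and it passed under TMM scaling (0.68), so its call rests on the scale. ICAM1 (ENSG00000090339, chr19:10270835-10286615), a leukocyte adhesion molecule, stood at 2.81, 2.56 and 1.04 CPM (597, 539 and 80 UMIs). The intervals of the tops overlapped (2.59 to 3.04 and 2.35 to 2.78 CPM), and the bottom level was 2.45-fold below the stretched top (1.93 to 3.14).

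The chemokine genes had few UMIs and the widest differences. CXCL1 (ENSG00000163739, chr4:73869393-73871242), a neutrophil attractant, stood at 2.84 CPM without stretch, 3.46 CPM in the stretched top and 1.08 CPM in the stretched bottom (604, 730 and 83 UMIs). It was 1.22-fold higher with stretch (1.09 to 1.36) and 3.20-fold lower in the bottom than in the stretched top (2.55 to 4.06). CXCL8 (ENSG00000169429, chr4:73740506-73743716), interleukin-8, stood at 2.56, 4.89 and 1.28 CPM (545, 1031 and 98 UMIs). It was 1.91-fold higher with stretch (1.72 to 2.12), with 21.1% of the stretched top UMIs in 1 cell, and 3.82-fold lower in the bottom than in the stretched top (3.11 to 4.75). CCL20 (ENSG00000115009, chr2:227805739-227817564), the ligand of CCR6, was close to the limit of detection in every library. It had 89 UMIs without stretch, 112 UMIs in the stretched top and 0 UMIs in the stretched bottom, where a count of 0 allows up to 0.0391 CPM. With the bottom set at that floor, CCL20 was 13.6-fold lower there than in the stretched top. That value is no lower bound, as it leaves out the counting error of the 112 UMIs. It also takes UMIs as independent, while those of CCL20 came from few cells. CXCL1 and CXCL2 share 10.2% of the 50-base windows in the last 500 bases of their transcripts, so reads that fall there could belong to either gene; CXCL1 and CXCL3 share 0%.

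As a group, the genes had ratios mostly above 0 with stretch and mostly below 0 in the bottom channel. A gene was called where its CPM, with 1 CPM added, differed by over 1.5-fold and at least 1 of the libraries reached 10 CPM, which 4 of the 10 genes did (the subunits and NFKBIA). For stretched top against not stretched top 0 of these 4 were higher and 0 were lower, where 0.175% of all genes were higher and 0.592% lower. With a minimum of 1 CPM, 1 of 9 was higher (CXCL8) and 0 were lower, against 0.203% and 0.959% of all genes; without each gene's highest cell in each library 0 of 9 were higher, CXCL8 then being at 0.49 on the log2 scale. The median log2 ratio of these 9 was 0.21 beside -0.17 for all genes at that minimum, and 8 of the 10 genes had a ratio above 0. TMM scaling moved the median of all genes to -0.01 and raised the share of higher calls among all called genes from 17.4% to 79.2%, so directions with stretch are to be read against that shift. NFKB1 (3 of 17 alternatives), CCL20 (3), NFKB2 (2) and ICAM1 (2) changed sign with stretch under some alternatives.

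For stretched bottom against stretched top 0 of 4 genes were higher and 2 were lower (RELB and NFKBIA), where 7.93% of all genes were higher and 11.0% lower. At the minimum of 1 CPM 0 of 9 were higher and 6 were lower (RELB, NFKBIA, BIRC3, ICAM1, CXCL1 and CXCL8), against 7.63% and 14.3% of all genes. The median of the 9 was -0.80 beside -0.06 for all genes, and 9 of the 10 had a ratio below 0, NFKB2 being the exception. For stretched bottom against not stretched top, which differ in both channel and stretch, 0 of 4 were higher and 1 was lower (RELB), against 6.80% and 20.7% of all genes. At 1 CPM 0 of 9 were higher and 4 were lower (RELB, ICAM1, CXCL1 and CXCL8), against 6.66% and 25.3%, with a median of -0.41 beside -0.24. The bottom library serves in both comparisons, so they are not independent of each other, and with 1 library a group no share was tested. Since the genes were chosen with earlier results of these data known, their shares and medians beside those of all genes only describe this list. Summed without EGFL7, endothelial markers were higher in the bottom library, and summed interferon-stimulated genes were lower (above). Without cells holding an endothelial marker UMI other than EGFL7, an alternative chosen after seeing the data, the ratio of RELB to the stretched top was -0.78 beside -0.83 with all cells, that of CXCL8 -1.46 beside -1.37, and that of NFKBIA -0.57 beside -0.59, which ended the call of NFKBIA and left 1 of 4 genes lower.

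**Figure D2:**
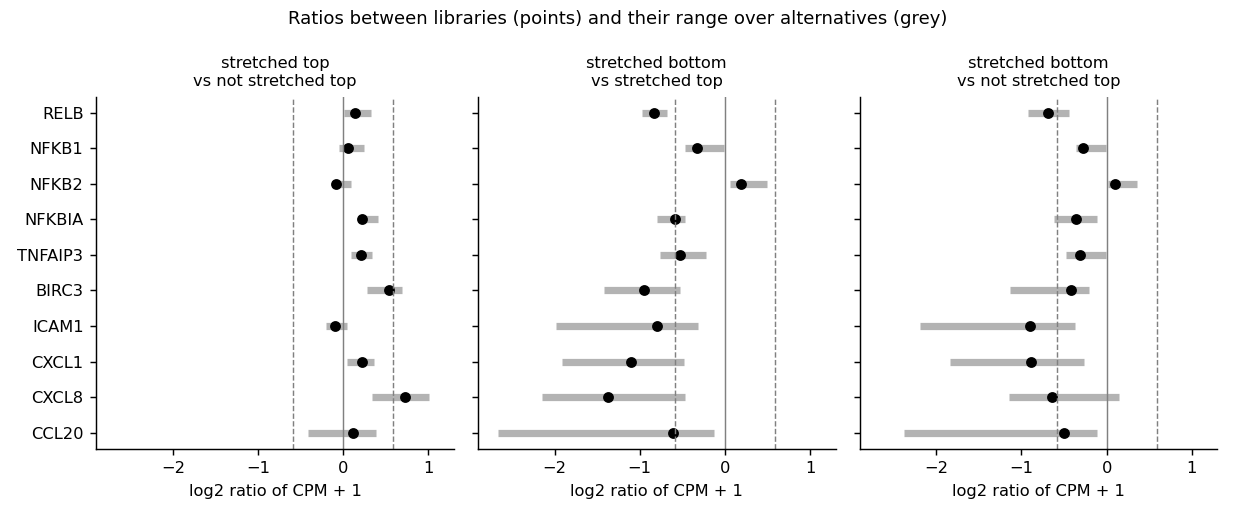
Log2 ratio (1 CPM added) of each gene in the 3 comparisons (black points), with the lowest and highest value over 17 alternatives in grey and dashed lines at 1.5-fold. In the middle panel all genes but NFKB2 lie below 0, from -1.37 for CXCL8 to -0.33 for NFKB1, and in the left panel CXCL8 alone lies beyond the line.

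The share of cells with a UMI gave another order before depth was matched. Over all UMIs 9 of the 10 genes had a higher share of positive cells in the bottom than in the stretched top library: RELB was found in 33.8% of bottom cells and 20.2% of stretched top cells, and NFKBIA in 49.9% and 29.3%. After each cell was thinned to 3000 UMIs, which left 15699, 18916 and 1709 cells and dropped 1507, 1205 and 242 shallower ones, NFKB2 was the single gene with a higher share in the bottom. RELB was then found in 6.43% of not stretched top, 7.11% of stretched top and 3.86% of bottom cells (95% Clopper-Pearson interval 3.00 to 4.89%). NFKBIA was found in 9.36%, 11.1% and 6.85%, and NFKB2 in 6.17%, 5.86% and 7.67% (6.45 to 9.03%). The higher unthinned shares of the deeper bottom library were thus not found at equal depth, except for NFKB2. For the rarer genes the bottom counts were small. ICAM1 was found in 3 of 1709 thinned bottom cells (0.176%, 0.0362 to 0.512%), beside 0.846% of stretched top cells. CCL20 was found in 0, with an upper bound of 0.216%. That bound lies above its share of 0.0793% in the stretched top, so the thinned shares of CCL20 do not separate the 2 libraries. The sorted cells included no type that should lack these genes, so a share due to free RNA was not measured.

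Within the bottom library the levels depended on depth. Cells of each library were put into 3 bins of equal size by UMIs per cell, and the shallowest bins had like medians, 5678.5 UMIs without stretch, 5301 with it and 5465 in the bottom library. In these bins RELB, NFKBIA, BIRC3 and CXCL1 were again lower in the bottom than in the stretched top, with no overlap of intervals. RELB stood at 17.6 against 25.9 CPM and CXCL1 at 1.54 against 5.13 CPM. CXCL8 was not, with 5.13 CPM in the bottom (3.46 to 7.32, 30 UMIs) and 5.34 CPM in the stretched top (4.58 to 6.19). NFKB1 was higher there, with 41.6 CPM in the bottom (36.5 to 47.1) against 27.7 CPM in the stretched top (25.9 to 29.6), and NFKB2 stood at 35.9 against 24.0 CPM. In the deepest bottom bin, with a median of 64409.5 UMIs, NFKB1 was at 23.4 CPM and CXCL8 at 0.626 CPM. For NFKB1 and CXCL8 the order of bottom and stretched top seen over whole libraries thus did not hold in the shallowest bins. These bins were alike in median only. Of 1951 bottom cells 1550 held at least 10000 UMIs, so the shallowest bottom bin reached past that depth. With each cell thinned to 3000 UMIs, NFKB1 was found in 7.43% of bottom and 8.54% of stretched top cells, with intervals that overlapped. CXCL8 also stood at 22.1 CPM (74 UMIs) in the bottom barcodes that the cell filter left out, beside 5.04 CPM in those of the stretched top, and without a filter its bottom level was 2.15 CPM.

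**Figure D3:**
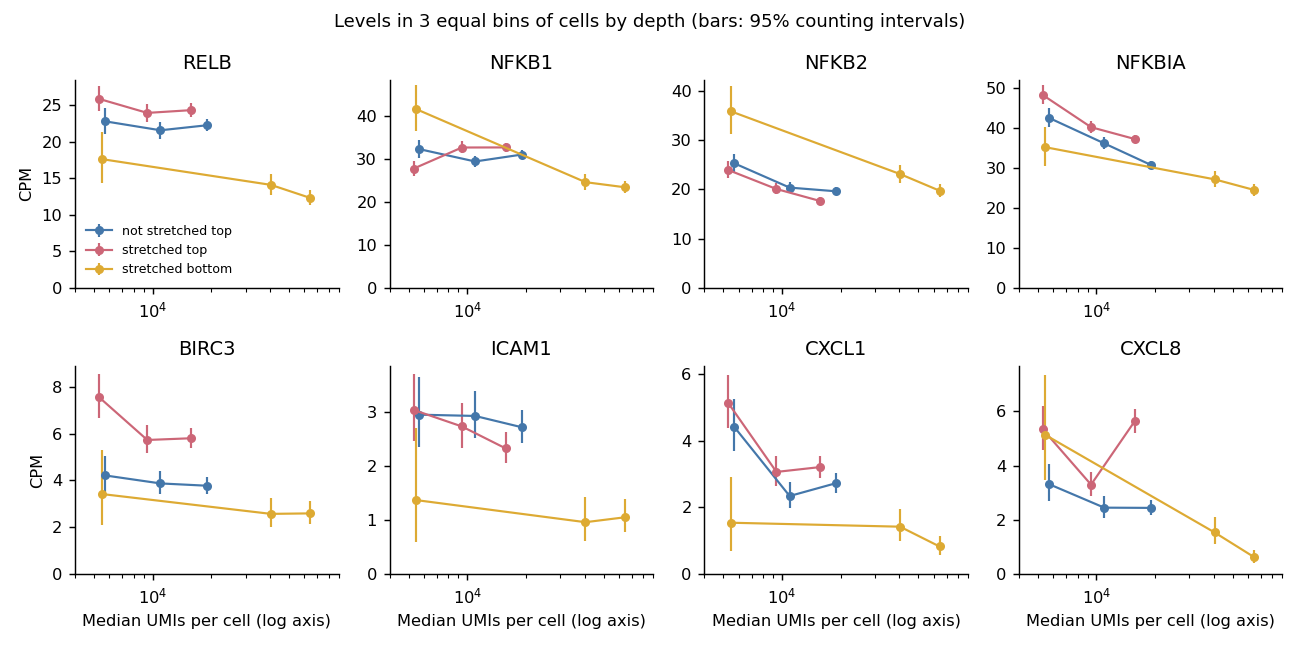
CPM of 8 genes in 3 equal bins of cells by UMIs per cell, plotted at each bin's median UMIs (log axis), with exact Poisson 95% intervals. In the shallowest bin the bottom library lies above the tops for NFKB1 and NFKB2, level with the stretched top for CXCL8, and below the stretched top for RELB, NFKBIA, BIRC3 and CXCL1; for ICAM1 the intervals overlap.

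In the top libraries chemokine UMIs sat in a small number of cells, whereas subunit UMIs were spread. In the not stretched top library 50% of all CXCL1 UMIs were held by 46 cells, in the stretched top by 70 and in the bottom by 13. For CXCL8 these numbers were 56, 33 and 21 cells, and for CCL20 5 cells in the not stretched and 6 in the stretched top library. For NFKB2, which had more UMIs, it took 1433 and 1504 top cells. ICAM1, with 597 UMIs in the not stretched top against 604 of CXCL1, took 227 cells there. As a share of the gene's positive cells, the numbers in the not stretched and stretched top were 15.2% and 18.6% for CXCL1. For NFKB2 they were 39.5% and 42.4%. In the bottom library these shares lay closer, with 24.5% for CXCL1, 30% for CXCL8 and 28.8% for NFKB2. A single stretched top cell held 218 of the 1031 CXCL8 UMIs (21.1%); the next held 48. That cell, with 15650 UMIs in all, also had 16 UMIs of CXCL1, 19 of NFKBIA, 12 of NFKB1, 7 of CCL20 and 6 of BIRC3. Without the highest CXCL8 cell of each library, a step chosen after seeing the data, CXCL8 stood at 3.86 CPM in the stretched top and 2.46 CPM in the not stretched top library. The log2 ratio was then 0.49 instead of 0.72, short of 1.5-fold, so the call of CXCL8 does not hold without those cells. In the thinned cells the variance of CXCL8 was 7.35 times its mean in the stretched top and 1.87 times in the not stretched top library, where the median gene between 1 and 10 CPM had 1.02 in either. Among RELB, NFKB1, NFKB2 and NFKBIA the highest ratio was that of NFKBIA, with 1.43 in the not stretched top library against a 90th percentile of 1.12 for genes between 10 and 100 CPM; its highest cells there held 40, 36 and 31 UMIs.

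**Figure D4:**
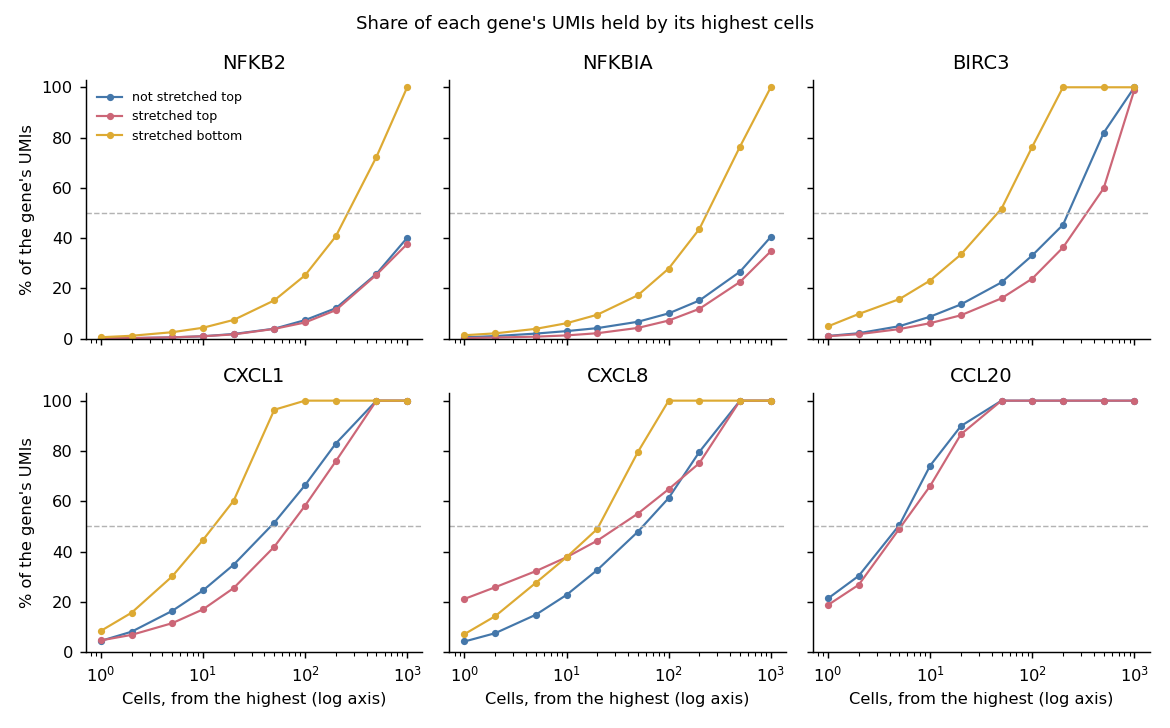
Cumulative share of a gene's UMIs (%) held by its highest cells, counted from the highest (log axis), for 6 genes in each library; the dashed line marks 50%. The CXCL8 curve of the stretched top library starts at 21.1% for 1 cell, and CCL20 reaches 50% within 6 cells, while NFKB2 in the top libraries is still below 50% at 1000 cells.

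The same cells tended to hold several of the genes. Cells with at least 3 summed UMIs of CXCL1, CXCL8 and CCL20, a limit set after seeing the data, numbered 89 without stretch (0.517% of cells), 127 with it (0.631%) and 12 in the bottom library (0.615%), and they held 53.8%, 59.9% and 33.1% of all UMIs of these chemokines. Near the limit were 66, 99 and 14 cells with 2 such UMIs and 29, 39 and 4 with 3. The limit counts all UMIs of a cell, so the deeper bottom cells reach it more readily, and the 3 shares are not matched for depth. In cells thinned to 3000 UMIs CXCL1 was found in 0.293% of bottom and 0.788% of stretched top cells. CXCL8 was found in 0.702% and 0.893%, and for both genes the intervals overlapped. Since the 3 chemokines define the cells, only the other genes are informative, as a description of cells that share their library. BIRC3 stood at 57.8 CPM in these cells against 3.50 CPM in the rest of the not stretched top (16.5-fold, 13.0 to 20.8) and at 61.7 against 5.63 CPM in the stretched top library (11.0-fold, 8.82 to 13.5). TNFAIP3 was 11.3-fold higher in both top libraries (7.54 to 16.4 and 7.98 to 15.5). NFKBIA was 6.30-fold higher in the not stretched and 5.67-fold higher in the stretched top library. The subunits differed least, with NFKB1 at 3.27-fold and 3.36-fold, RELB at 3.93-fold and 3.03-fold, and NFKB2 at 2.38-fold and 1.93-fold. In both libraries the feedback and survival targets were thus further above the other cells than the subunits were. CXCL2 and CXCL3, neighbouring chemokine genes that were not used to choose the cells, were 51.6-fold and 49.7-fold higher in the not stretched and 34.9-fold and 36.9-fold higher in the stretched top library. The chosen cells were deeper, with a median of 14489 against 10953 UMIs in the not stretched and 12151 against 9375 in the stretched top library. In the 12 bottom cells NFKBIA was 4.66-fold higher (3.53 to 6.03), with 28 of its 59 UMIs in 1 cell and 12 in another. ICAM1 had 0 UMIs in the 12 cells, and BIRC3 had 4.

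Pairs of genes were also compared in cells thinned to 3000 UMIs. In the stretched top library 18.1% of CXCL1-positive cells had a CXCL8 UMI, against 0.757% of CXCL1-negative cells (27 cells with both), and in the not stretched top library 13.5% against 0.622% (14 cells with both). For RELB and NFKB2 the shares lay closer: 7.66% of RELB-positive stretched top cells had an NFKB2 UMI, against 5.73% of RELB-negative cells. Across the thinned cells of the not stretched top library, the 5 of 7973 other genes of at least 10 CPM in all libraries with the highest Pearson correlation to the summed UMIs of the 10 genes were IER3 (r = 0.142), JUNB (0.112), SDC4 (0.105), IRF1 and IER2. In the stretched top and stretched bottom library r was 0.121 and 0.0847 for IER3, 0.111 and 0.104 for SDC4, and 0.0604 and 0.0146 for JUNB. These correlations, the first over 15699 cells of 1 library, are weak, come from sparse counts, and are given as a description.

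A second small group of cells had another set of the same genes. Cells with at least 20 summed UMIs of APOA1, APOA2, FABP1, APOC3, TTR and AGR2, genes of enterocyte and hepatocyte lipid transport and of secretion, numbered 348 without stretch (2.02%), 387 with it (1.92%) and 0 in the bottom library; 70 and 65 top cells had between 10 and 29. TNFAIP3 stood at 11.4 CPM in these cells against 1.70 CPM in the rest of the not stretched top (6.70-fold, 5.14 to 8.64) and at 9.40 against 2.27 CPM in the stretched top library (4.14-fold, 3.06 to 5.49). ICAM1 was 5.78-fold higher (4.57 to 7.23) and 4.06-fold higher (3.01 to 5.37). CCL20 was 31.0-fold and 25.8-fold higher, and 49.4% and 42.0% of its UMIs lay in these cells. CXCL8 stood at 0.616 against 2.63 CPM in the not stretched and 2.09 against 4.97 CPM in the stretched top library. It was below the other cells in each, on 4 and 12 UMIs. NFKB2 was lower as well, 1.51-fold in the not stretched and 1.88-fold in the stretched top library. NFKBIA was 1.36-fold lower in both, so the inhibitor genes NFKBIA and TNFAIP3 lay on opposite sides. BIRC3 and CXCL1 had intervals that held 1 in each. The APOA1-high cells were deeper than the rest, with a median of 17252.5 against 10866 UMIs in the not stretched top library. In the stretched top library the medians were 13867 and 9319.5 UMIs. The bottom library had 0 APOA1-high cells and 0 CCL20 UMIs. Of the chemokine-high cells 7 of 89 (7.87%) and 8 of 127 (6.30%) were in this group, beside its shares of 2.02% and 1.92% of all cells. APOA1 itself was 6.68-fold and 5.64-fold higher in the chemokine-high cells. CCL20 helps define those cells and is high in this group, and both limits count all UMIs of a cell. The overlap is thus partly built into the choice of cells. Without the APOA1-high cells ICAM1 and TNFAIP3 kept their order of libraries.

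**Figure D5:**
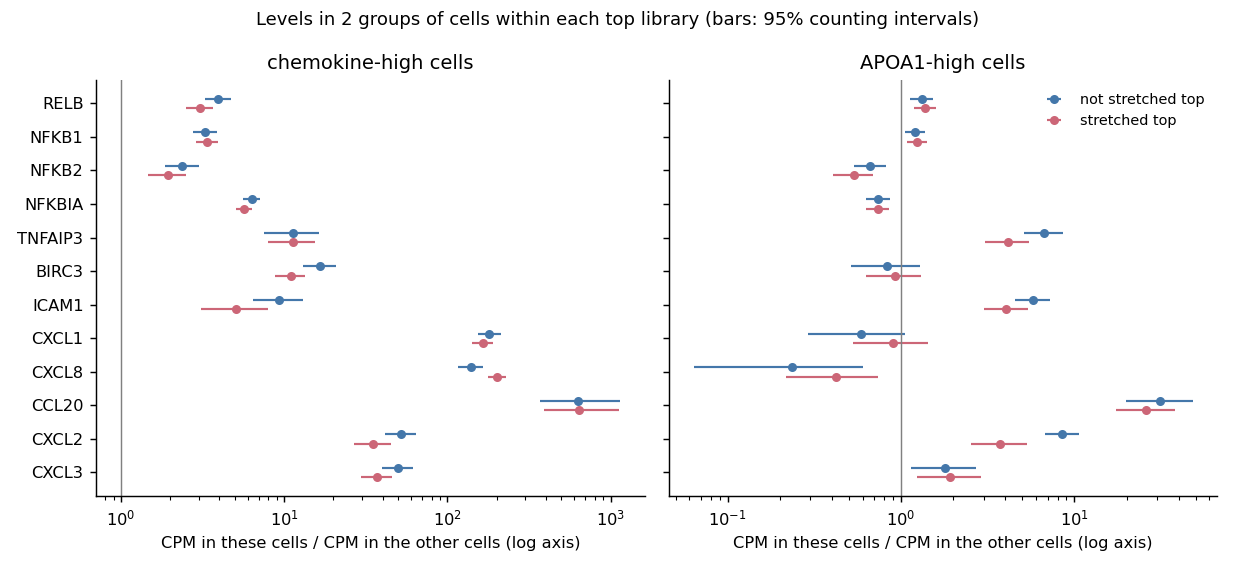
CPM in chosen cells over CPM in the other cells of the same library (log axis) in both top libraries, for cells with at least 3 UMIs of CXCL1, CXCL8 and CCL20 (left, where these 3 genes are high by choice) and for APOA1-high cells (right), with 95% counting intervals. On the left every gene lies above 1; on the right TNFAIP3, ICAM1, CCL20 and CXCL2 lie well above 1 while CXCL8, NFKB2 and NFKBIA lie below it.

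By cell cycle phase, called in thinned cells, BIRC3 and NFKBIA stood highest in G1 calls of both top libraries. BIRC3 was at 5.27 CPM in G1, 2.60 CPM in S and 2.66 CPM in G2/M calls of the not stretched top library, and at 7.61, 4.55 and 5.64 CPM in the stretched top. NFKBIA was at 38.8 CPM in G1 and 36.1 CPM in S calls without stretch, and at 45.5 and 39.4 CPM with it. The intervals of NFKBIA in G1 and S overlapped in both libraries, and those of BIRC3 in G1 and G2/M in the stretched top. NFKB1 was at 27.1 CPM in G1 and 35.4 CPM in G2/M calls of the stretched top library, with no overlap, and at 31.1 and 34.5 CPM without stretch, where the intervals overlapped. In bins by interferon-stimulated UMIs NFKBIA stood at 31.6 CPM in the lowest, 35.8 CPM in the middle and 40.5 CPM in the highest bin of the not stretched top library, and at 39.3, 40.9 and 46.0 CPM in the stretched top. In the bottom library it stood at 26.3, 31.0 and 22.3 CPM, with intervals that overlapped. Interferon-stimulated genes summed to 530 CPM there, so thinned bottom cells held few such UMIs. Cells tied at a bin limit were split by their order in the data. The bottom bins thus separate cells poorly, and neither a trend nor its absence is read from them. With equal weight for each phase, in cells thinned to 3000 UMIs, RELB was at -0.84 in the bottom against stretched top comparison and CXCL8 at -0.47. The main values, over all UMIs of kept cells, were -0.83 and -1.37, so they differ in thinning as well as in phase weight. CXCL8 was found in 12 of 1709 thinned bottom cells. The part of interferon-stimulated genes in these differences was not tested.

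The rest of the pathway, 112 measured genes in 7 lists, had 0 genes past 1.5-fold between the top libraries at a minimum of 1 CPM. For stretched bottom against stretched top 19 of the 76 that reached 1 CPM passed, 7 higher (9.21%) and 12 lower (15.8%), near the 7.63% and 14.3% of all genes; 14 of them also passed under 3 other scalings. Against the not stretched top 22 of 77 passed, 3 higher (3.90%) and 19 lower (24.7%), beside 6.66% and 25.3% of all genes, and 14 did so under all scalings. The counts of the single lists below are to be read against these shares of all genes, and nothing is called particular to a list. Among 7 other subunits and inhibitors, BCL3, a nuclear IkB protein and itself a target, was at 3.68 CPM in the bottom, 12.6 CPM in the stretched top and 10.2 CPM in the not stretched top library, 3.42-fold below the stretched top (3.02 to 3.88). NFKBIB, which encodes IkB-beta, was 1.79-fold higher in the bottom than in the stretched top (1.71 to 1.87), at 42.4 against 23.7 CPM. The inhibitor genes NFKBIA and NFKBIB thus lay on opposite sides.

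Among 26 kinases and adaptors, 25 of which reached 1 CPM, 2 were higher and 1 lower in the bottom than in the stretched top, beside 7.63% and 14.3% of all genes. TNIP1, a partner of A20, was 1.98-fold lower (1.83 to 2.14), while TRAF2 (1.62-fold, upper bound 1.75) and the kinase regulator IKBKG (1.57-fold, 1.45 to 1.71) were higher, both short of 1.5-fold with totals taken without mitochondrial and ribosomal protein genes. Against the not stretched top 0 of 25 were higher and 7 lower, beside 6.66% and 25.3% of all genes, led by TNIP1 (-1.03), the Toll-like receptor adaptor MYD88 (-0.81) and TAB2 (-0.70); MYD88 and TAB2 were short of the threshold under median of ratios scaling.

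Of 16 receptors 13 reached 1 CPM, and 1 was higher and 4 lower in the bottom than in the stretched top (all genes 7.63% and 14.3%). TNFRSF12A, the TWEAK receptor Fn14 and an activator of the non-canonical branch, stood at 271 CPM in the bottom, 113 CPM in the stretched top and 129 CPM in the not stretched top library, 2.39-fold above the stretched top (2.35 to 2.43). TLR3, which senses double-stranded RNA, and TLR5, the flagellin receptor, were lower, at 0.444 against 2.03 CPM and 0.391 against 1.45 CPM; TNFRSF11A, the receptor RANK, was at 0.861 CPM in the bottom against 2.61 CPM in the not stretched top. Of 11 ligands 3 reached 1 CPM. IL18, a cytokine of the interleukin-1 family, stood at 284 CPM in the bottom and 188 CPM in the stretched top library (1.51-fold, 1.48 to 1.53); with totals taken without mitochondrial and ribosomal protein genes its log2 ratio was 0.46, short of the threshold.

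Of 19 other chemokines and cytokines 7 reached 1 CPM in that comparison, with 0 higher and 3 lower (all genes 7.63% and 14.3%). CXCL3 was 2.28-fold lower (1.79 to 2.93), CXCL2 2.28-fold lower (1.72 to 3.08) and the macrophage growth factor CSF1 2.34-fold lower (1.76 to 3.16), all at levels under 3 CPM. None of 6 chemokine receptors reached 1 CPM in any library. Of 28 other target genes 27 were measured and 21 reached 1 CPM, with 2 higher and 3 lower, shares like those of all genes (7.63% and 14.3%). GADD45B, a stress-response gene, was 1.84-fold higher in the bottom than in the stretched top (1.76 to 1.91), while the transcription factor IRF1 (1.96-fold, 1.81 to 2.12) and the peptide transporter TAP1 (2.02-fold, 1.90 to 2.15) were lower. Against the not stretched top, TAP1 (-1.24), IRF1 (-1.08) and the ephrin EFNA1 (-0.94) were furthest down. IRF1 and TAP1 are interferon-induced too, and the summed interferon-stimulated genes were lower in the bottom (above); the part of that in these 2 values was not tested.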

How the data were processed

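RNA was measured in single HCT116 cells of 3 libraries, 1 per group (10x Chromium 3′ kit, per the labels' protocols). The deposited matrices hold whole-number counts of UMIs per gene and cell barcode, made by the authors with Cell Ranger 7.0.0, per the file headers, on hg38, per the submitters' processing notes; the annotation version is not given in the sources used here. The libraries listed 26106 (not stretched top), 25169 (stretched top) and 3513 (stretched bottom) barcodes, each with at least 500 UMIs, where the labels state a target of about 10000 captures a sample. Kept cells had 500 or more genes, 1000 or more UMIs and no more than 20% mitochondrial UMIs, and no doublets were removed (leaving out the deepest 5% of cells is an alternative).

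UMIs were summed per library and scaled to CPM. The main measure was the log2 ratio with 1 CPM added, called past 1.5-fold where either library reached 10 CPM, with a minimum of 1 CPM as a second rule. Intervals (95%) are exact Poisson for CPM, exact conditional binomial for ratios and Clopper-Pearson for shares; they cover counting error only, and a count of 0 was given a floor of 3 counts. Shares of positive cells were also computed after thinning to 3000 UMIs. TMM factors came from edgeR 4.0.16 (R 4.3.3), and phases from scanpy 1.11.5. The calls were checked on simulated data for stretched bottom against stretched top (12515 genes). They found 68 of 70 genes set at 2-fold, 0 of 60 set at 1.25-fold and 0 of 12315 unchanged ones. The simulated counts held Poisson counting error around a shared mean, with no variation between chips or libraries and no clumping in cells. They check the arithmetic of the calls and give no rate of false calls between real libraries.

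Members and lists were chosen with earlier results of these data known. Other pathway genes are named by rule: up to 3 past 1.5-fold with the largest log2 ratio per list and comparison. The limits for APOA1-high and chemokine-high cells, and the alternatives without cells holding an endothelial UMI other than EGFL7, without each gene's highest cell and without cells of 3 or more chemokine UMIs, were chosen after seeing the data.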

Additional observations from a re-analysis of the deposited data

How the results depend on the processing

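Of the members' log2 ratios under the alternatives, 394 stayed within a range built by setting the Poisson limits of the libraries against each other. This range is wider than the binomial interval given for ratios elsewhere. Another 115 moved outside it, and 1 reversed. In all, 11 of the 510 changed sign, 10 of them with stretch among values short of 1.5-fold (NFKB1, NFKB2, ICAM1 and CCL20). The other, and the single one past 1.5-fold in the main analysis, was CXCL8: in stretched bottom against not stretched top it was 0.14 with equal weight for each phase (-0.65 in the main analysis). At the minimum of 10 CPM, the count of members higher with stretch went from 0 to 1 with a minimum of 1 CPM. The count lower in stretched bottom than in stretched top went from 2 to 1 under TMM, median of ratios, equal weight for each cell or phase, a stricter cell filter and 5 CPM added, and without the deepest 5% of cells, the 1% with the most member UMIs, cells with an endothelial UMI other than EGFL7 or cells with 3 or more chemokine UMIs. It was 6 with a minimum of 1 CPM and 0 at 2-fold. Against the not stretched top the count lower went from 1 to 0 under TMM, median of ratios, 5 CPM added and 2-fold, to 4 with a minimum of 1 CPM and to 2 without cells with any endothelial UMI.

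At the minimum of 1 CPM, the count higher with stretch went from 1 to 2 (BIRC3 and CXCL8) under TMM, median of ratios, totals that leave out mitochondrial and ribosomal protein genes, equal weight for each cell or phase and 0.1 CPM added. It went to 0 in cells thinned to 3000 UMIs, with 5 CPM added, at 2-fold, without each gene's highest cell and without cells with 3 or more chemokine UMIs. The count lower in bottom than in stretched top went from 6 to 2 with 5 CPM added or at 2-fold, and to 3 without the 1% of cells with the most member UMIs. Against the not stretched top it went from 4 to 2 under TMM, median of ratios, without that 1% and without cells with 3 or more chemokine UMIs, and to 0 with 5 CPM added or at 2-fold. Members with a higher share of positive cells in bottom than in stretched top went from 9 to 1 at 3000, 5000 and 10000 UMIs. The cause of these moves was not tested. With a minimum of 50 CPM no member is left, so that alternative gave no value. No paired analysis was possible because each group has 1 library. Low counts limit CCL20, CXCL1, CXCL8, ICAM1 and TNFAIP3, each at or under 108 UMIs in the bottom library.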

Other observations

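The genes considered were the 4309 with at least 50 UMIs inside the chemokine-high cells of each top library, so a gene that is low elsewhere, such as IFNL1, FGB or TFF1, entered only because it is high in these cells, and how many genes were high is not read from this list. IFNL1, which encodes a type III interferon, stood at 69.8 CPM in these cells against 0.280 CPM in the rest of the not stretched top, and at 31.5 against 0.473 CPM in the stretched top library. FGB, a fibrinogen chain, was 17.0-fold and 26.0-fold higher, TFF1, a secreted mucosal peptide, 18.6-fold and 8.29-fold, and the transthyretin gene TTR 9.99-fold and 18.5-fold. PLAU, which encodes urokinase, was 4.43-fold and 5.20-fold higher. These genes were picked after their values were seen, in cells chosen by their chemokine UMIs, and are given as a description with no test.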
